A study of Caenorhabditis elegans with 2 samples.

Results

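LIN-35 binding was mapped by chromatin immunoprecipitation with sequencing (ChIP-seq) in intact larvae of Caenorhabditis elegans, a nematode, at the first larval stage (L1). The part described is the 200 strongest binding sites with a single protein-coding start near the peak. They were chosen by a rule on the authors' reproducible peaks, the 3838 of 30000 pooled peaks (12.8%) that passed an irreproducible discovery rate (IDR) threshold. The rule took autosomal peaks with exactly 1 protein-coding 5′ end within 500 bp of the summit, the base of highest signal. Starts were counted from the summit, so a promoter called single-gene here can still lie near the start of another gene. It left out genes that follow a same-strand neighbour whose end lies at most 500 bp before their start, since these can be downstream genes of an operon. Of the 3838 IDR peaks, 3353 were autosomal, 1327 of those had exactly 1 start in reach, and 1013 (26.4% of all IDR peaks) passed the operon step. The 200 with the highest deposited signal (19.7% of the 1013) are described here as the strongest promoters, named members in the plots, and the remaining 813 serve as their reference. They belong to 200 different genes, 1.16% of the 17242 autosomal protein-coding genes.

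The study held 1 group of 2 biological replicates, both ChIP of LIN-35 from mixed-sex L1 animals of strain YL409. This strain has the genotype unc-119(ed3)III and carries the transgene vrIs60, in which the lin-35 promoter drives LIN-35 joined to GFP and FLAG, together with a working unc-119(+) copy. Per the labels the antibody was lin-35 and fragments measured 150 to 350 bp, and the sources used here do not give whether the tag itself was precipitated. No untagged strain, other stage or control library was analysed here, the read depth is unknown, and strong binding in few cells and weak binding in many cannot be told apart in whole larvae.

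LIN-35 is the worm's pocket protein of the Rb family and the central scaffold of the DREAM complex, which represses cell cycle and germline genes in somatic cells. DREAM reaches DNA through a pair of contacts: the E2F-DP dimer (EFL-1 and DPL-1 in the worm) recognises the E2F element, and LIN-54 recognises the cell cycle genes homology region (CHR). Pocket proteins have no DNA-binding domain of their own, so the sequence under a LIN-35 summit is the usual place to look for what holds the complex there.

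Sequences under the summits show both elements in the forms they took. The first set shows 4 of the 5 strongest promoters with an E2F match, and adds ubc-7 and exos-2, so that it also holds 4 of the 5 strongest with both elements. Each run is 30 bases of the ce11 (WBcel235) genome, from the RefSeq copy, written 5′ to 3′ on the strand of the gene and centred on the E2F match nearest the summit. Capitals mark the E2F match (TTCCCGC or TTCGCGC or TTGCCGC or TTGGCGC, or the same read on the other strand) and the CHR match (TTTGAA, or TTCAAA when it lies on the other strand). At sec-61.G and exos-2 the elements stand side by side, 0 and 3 bp apart. At wee-1.3 and ubc-7 the CHR match fell outside the printed bases.
sec-61.G (chrV:10897393-10897422, minus strand): ttcttaTTTGAATTGCCGCcaatggcaatg
tasp-1 (chrIII:10759264-10759293, plus strand): gtgtgacacagcGCGCCAActtgaaaatgg
pdhk-2 (chrIII:8741612-8741641, minus strand): tcagtgtccgccTTGGCGCatccctcgatt
wee-1.3 (chrII:9716799-9716828, minus strand): gtcttctcctctTTCGCGCgcttgttttga
ubc-7 (chrIII:9631521-9631550, minus strand): aaaccctataaaTTCGCGCtgcaactttta
exos-2 (chrIV:6415317-6415346, plus strand): acaTTTGAAtagGCGCCAAttgagtgacgt

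The second set shows the more common case, a CHR match with no E2F match within 50 bp of the summit, at the 5 strongest such promoters, a set added after the values were seen. Capitals mark the CHR match nearest the summit, which began 30 to 50 bp on the side of the summit away from the gene in all 5. At rpb-11 another CHR match began 44 bp from the summit on the gene's side.
rpl-35 (chrIII:7854629-7854658, plus strand): gaaaaacttcctTTCAAAccgccgcgctca
syf-3 (chrV:5939669-5939698, plus strand): tgccttttctatTTCAAAttccctctaaaa
rpb-11 (chrII:14059912-14059941, plus strand): cgggaattcacaTTTGAAtcaccgcgcaaa
vig-1 (chrII:1320568-1320597, plus strand): ctagttttcgatTTCAAActgccgcccatt
snr-6 (chrIII:12429917-12429946, minus strand): cattttattaaaTTCAAAattccgcctttt

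The third set shows promoters with neither element. The 3 strongest of these were rpl-3, cox-5A and citk-2. Within 75 bp of their summits, a wider window than the 50 bp used for the elements, lay runs of bases that recurred at another of the strongest promoters. Capitals mark them here: 21 bases shared by rpl-3 and cox-5A, and 23 bases shared by citk-2 and mcm-10, a gene whose own summit had both elements. For these 4 the strand is the one on which the run reads the same, which is the gene's own strand except at cox-5A. Each run occurred 2 times in the genome on either strand, that is, nowhere but at these promoters. Shared runs were not limited to promoters with neither element: lem-3 and sec-61.G, which had both, shared 19 bases.
rpl-3 (chrIII:3867562-3867591, plus strand): acagCTACGGTAAAAGCGTGTTTTGcgacg
cox-5A (chrIII:12905157-12905186, minus strand): tcggaCTACGGTAAAAGCGTGTTTTGagag
citk-2 (chrII:4999349-4999378, plus strand): taaTTTTGCGTGACGGTGTTTGCGGAagag
mcm-10 (chrIII:11317207-11317236, plus strand): cagTTTTGCGTGACGGTGTTTGCGGAgttg

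The signal, the value deposited for each peak on the authors' scale, chose these promoters and is given as a description. Pooled signals ran from 435.5 to 3457 with a median of 722.1, against a median of 122.9 at the other 813. The strongest was rpl-3, a protein of the large ribosomal subunit, with a signal of 3457 and replicate signals of 958.7 and 2511. Close behind was cdc-48.1, an AAA ATPase that pulls ubiquitin-marked proteins out of complexes, at 3418 pooled, 940.7 in replicate 1 and 2482 in replicate 2. Next came sec-61.G, a subunit of the translocon of the endoplasmic reticulum, at 3004 pooled, 942.7 in replicate 1 and 2058 in replicate 2. These 3 stood apart from the 4th, tasp-1, the worm threonine aspartase, which had 2344. Replicate signals are on separate scales, so the higher replicate 2 values show no difference in binding.

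The remaining genes of the strongest 15 had signals of 2237 or less. cox-5A, a cytochrome c oxidase subunit, had a signal of 2237 and rpl-35, of the large ribosomal subunit, 2227. The splicing factor gene syf-3 had 2088 and citk-2 had 2056. efl-1, which encodes the E2F subunit of DREAM, had 1964, and its window held neither an E2F nor a CHR match. rpb-11, an RNA polymerase II subunit, had 1939, and pdhk-2, a pyruvate dehydrogenase kinase, 1819. wee-1.3, the kinase that inhibits CDK, had 1784, Y94H6A.3 had 1746, vig-1 had 1623 and snr-6, an Sm protein of the spliceosome, 1622. Each of the 15 summits fell upstream of its gene, in intergenic sequence. The gene of lin-35 itself is not among the 200, because its peak (signal 1890, IDR rank 21) lay within 500 bp of 2 starts, those of lin-35 and vps-51.

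The limit of 200 fell within a smooth run of signals. The last promoters inside were crt-1 (calreticulin, 436.3), W02G9.3 (436.2) and T25G3.3 (435.5), and the first outside were K02C4.3 (435.2), pig-1 (433.2) and pde-12 (431.9).

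All 200 promoters were matched by a peak in either replicate, and all were among the 1000 strongest peaks of both. Their ranks ran from 1 to 768 among 23861 peaks of replicate 1 and from 1 to 602 among 30000 peaks of replicate 2. rpl-3 ranked 1 in both, and sec-61.G ranked 3 in both. The largest proportional gap was at ima-2, an importin alpha gene, which ranked 116 in replicate 1 and 30 in replicate 2. vig-1 differed in the same direction (78 and 28). wwp-1, a HECT ubiquitin ligase (50 and 159), pfd-5, a prefoldin subunit (56 and 178), and phb-2, a mitochondrial prohibitin (36 and 92), ranked higher in replicate 1. The pooled signal holds both replicates, so these ranks are no independent check of the choice.

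**Figure D1:**
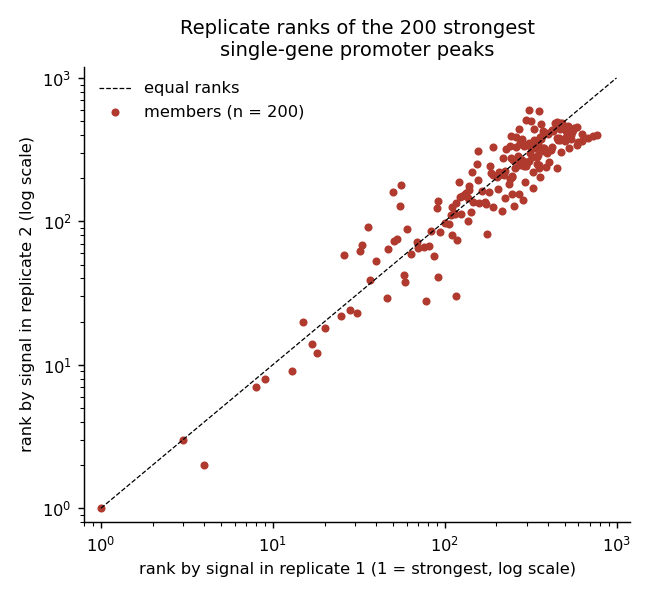
Rank by signal in replicate 1 (x axis, log scale) against rank in replicate 2 (y axis, log scale) for each of the 200 strongest promoters, with a dashed line of equal ranks. rpl-3 sits at 1 on both axes, and ima-2 and vig-1 lie furthest below the line among the high ranks.

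The place of the summit, which the rule did not use beyond the choice of peaks, differed little between replicates. The median shift of the summit was 8 bp at the strongest promoters and 21 bp at the other 794 with a peak in both lists. It was at most 10 bp at 124 of the 200, at most 25 bp at 189 and at most 50 bp at 199. The exception was mcm-10, a replication initiation factor, whose replicate summits lay 120 bp apart within a peak of signal 490.6. The strongest promoters have the higher signal by choice, and the part of signal in this shift was not tested.

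Summits lay upstream of the gene at 190 of 200 strongest promoters (95%, exact 95% interval 91 to 97.6), against 713 of 813 others (87.7%, 85.2 to 89.9). Intervals here and below cover counting error only. The median distance to the annotated start was 189 bp against 214 bp, and the middle 50% of the strongest promoters lay 117.5 to 286.2 bp away. Between genes lay 175 summits (87.5%) against 675 of the others (83%), in introns 17 (8.50%) against 83 (10.2%) and in 5′ untranslated regions 8 (4%) against 44 (5.41%). No summit of the 200 lay in a coding exon or a 3′ untranslated region, and 6 and 5 of the 813 others did. A count of 0 in 200 has an exact upper bound of 1.83%.

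**Figure D2:**
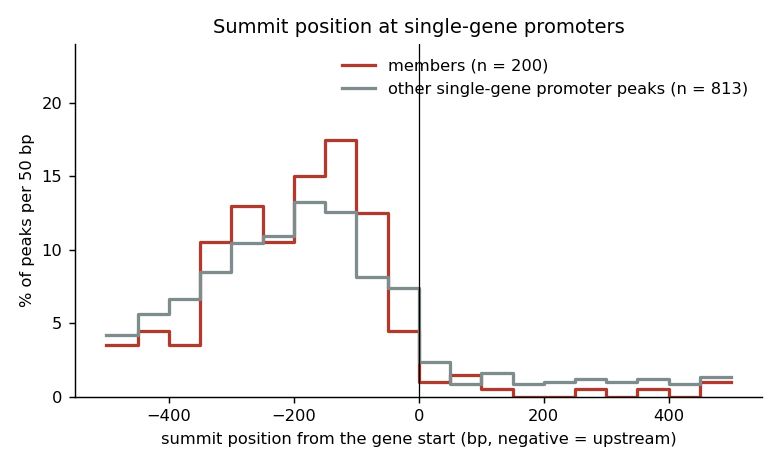
Summit position relative to the annotated gene start (x axis, bp, negative upstream) as the percentage of peaks per 50 bp (y axis) for the 200 strongest promoters and the other 813. Both crowd upstream of the start, and 10 of the 200 lie downstream of it.

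The 10 exceptions lay downstream of the annotated start. The strongest were ints-4, a subunit of the Integrator complex (signal 1496, 53 bp downstream), mrt-2, a subunit of the checkpoint clamp (1191, 140 bp) and B0432.10 (908.4, 464 bp). ints-4 and mrt-2 summits were in a 5′ untranslated region and that of B0432.10 in an intron. Gene records can begin at the site of trans-splicing, where a short leader RNA replaces the first bases of the transcript, so the distance to the record is not always the distance to the true promoter. A record beginning directly after TTTCAG, the trans-splice acceptor consensus, was found at 50 of the strongest promoters (25%) and at 197 of the others (24.2%). AG, as part of TTTCAG or not, stood directly before the start at 106 (53%, 45.8 to 60.1) against 356 (43.8%, 40.3 to 47.3). In those 50 the summit lay a median of 256.5 bp away and always upstream, against 164 bp in the other 150, a split chosen after the values were seen.

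The distance to the nearest gene upstream, where the start lay outside other genes, had a median of 1051 bp at 185 of the strongest promoters and 1508 bp at 758 of the others. Over all 200 and all 813, that gene pointed the other way at 113 (56.5%) against 459 (56.5%). These totals include the 15 and 55 starts that lay inside another gene. Another IDR peak lay within 1 kb of the gene at 45 (22.5%) against 174 (21.4%). At agt-2, M117.3, B0432.10 and lem-4 a gene pointing the other way began 170, 282, 350 and 439 bp from the start. Their summits lay downstream of their own start. The start of a small non-coding RNA lay within 500 bp of 4 summits (2%, 0.548 to 5.04) against 41 (5.04%, 3.64 to 6.78). These 4 were F09G2.2, nol-56 and ubl-1, near snoRNAs, and panl-2, near a microRNA. The guanine and cytosine content of the 101 bp around the summit had a median of 45.54% against 46.53%.

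A CHR match lay within 50 bp of the summit at 106 of the 200 strongest promoters (53%, 45.8 to 60.1). Among the other 813 it did so at 139 (17.1%, 14.6 to 19.9). Windows of the same 101 bp centred 500 bp away from the strongest summits held it at 29% on the side away from the gene and 18% toward the gene. Of 13895 windows centred 190 bp upstream of autosomal gene starts outside candidate operon positions, 30.3% held it. The strongest promoters were thus above the general promoter level and the others below it. Base composition differed too. Guanine and cytosine made up 53.50% of the bases 0 to 19 bp from the summit at the strongest promoters and 49.86% at the others. At 21 to 40 bp on the side away from the gene the order was reversed, with 40.55% and 44.83%. At 181 to 200 bp on the side away from the gene they made up 32.62% and 33.95%. The part of composition in the differences between summits and other windows, or between the strongest promoters and the others, was not tested. The same letters reversed, which keep the base composition, were found at 13.5% of the strongest summits and 5.90% of the others. Of all 2080 hexamers counted with both strands merged, TTTGAA differed most between the strongest promoters and the others.

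The CHR share fell with the rank of the promoter. It was 68% in the first 50, 62% in the next 50, then 52% and 30% in the last 50 of the 200. In order of signal over all 1013, it was 65% (54.8 to 74.3) in the first 100 and 41% (31.3 to 51.3) in the second, 28% in the third and 19% in the fourth. From there on it stayed between 11% and 21%, under the share in promoters generally. The same frequency was seen at strong peaks that the rule left out: of 288 other IDR peaks at least as strong as the weakest of the 200, 153 (53.1%, 47.2 to 59) held a CHR match, among them 68 of 143 (47.6%, 39.1 to 56.1) with 2 or more starts, 24 of 48 (50%, 35.2 to 64.8) with no start and 61 of 97 (62.9%, 52.5 to 72.5) with 1 start within 500 bp. A frequent CHR match was thus not limited to single-gene promoters.

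**Figure D3:**
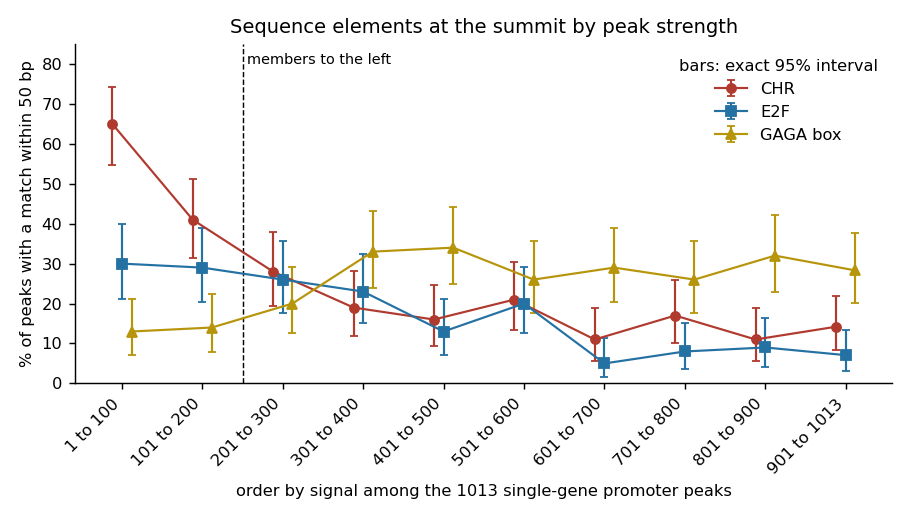
Percentage of peaks with a CHR, E2F or GAGA box match within 50 bp of the summit (y axis) in successive groups of 100 single-gene promoter peaks ordered by signal (x axis, last group 113), with exact 95% intervals. The CHR share is 65% and 41% in the 2 groups left of the dashed line, which are the strongest promoters, and 28% or less to its right.

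CHR matches were not centred on the summit. Within 50 bp, 94 matches lay on the side away from the gene and 25 on the side of the gene. At the other 813 promoters the counts were 78 and 82. Of the strongest promoters, 86 (43%) had a match on the far side and 25 (12.5%) on the near side. The imbalance was seen for 102 genes on the plus strand (53 and 13 matches) and 98 on the minus strand (41 and 12), so it followed the gene and not the direction of the chromosome. It was also there with the summits of replicate 1 (93 and 24) and replicate 2 (93 and 25), which are not independent of the pooled summit. At the strongest promoters guanine and cytosine made up 40.55% of the bases 21 to 40 bp away on the far side. They made up 48.95% at 20 to 39 bp on the gene's side. At the others these values were 44.83% and 46.10%. The part of composition in the imbalance was not tested. The match read TTTGAA on the gene's strand in 53 of the 94 and on the other strand in 41. In steps of 25 bp, counted by the middle of the match and with those that cross the 50 bp edge, matches were densest 26 to 50 bp from the summit on the far side. That step held 61 matches (30.5 per 100 promoters), and the first 25 bp on that side held 36. Only 9 lay in the first 25 bp on the gene's side (4.50 per 100), while bins beyond 50 bp held 12.5 per 100 at most. A narrower window of 25 bp around the summit held a CHR match at 18% of the strongest promoters, because it leaves out the densest step.

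**Figure D4:**
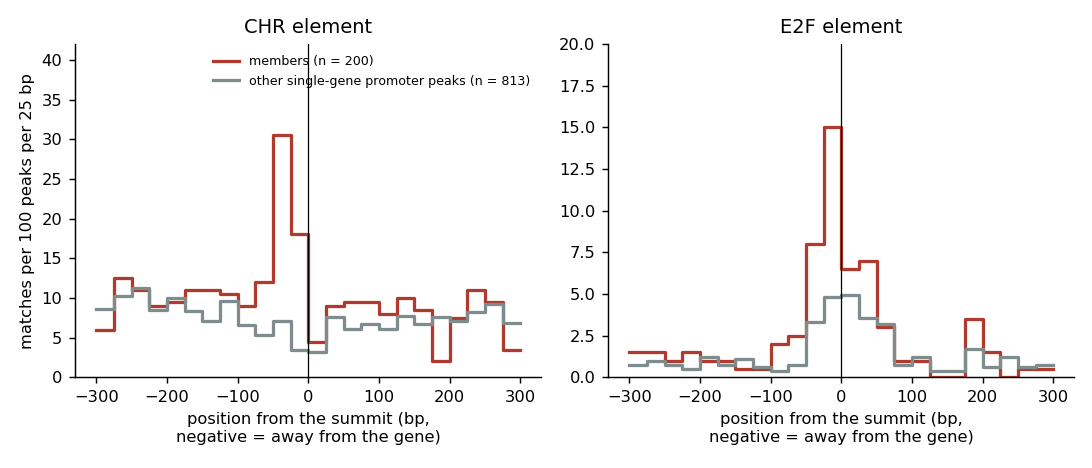
Matches per 100 peaks in steps of 25 bp (y axis) by position from the summit (x axis, bp, negative away from the gene) for the CHR element (left) and the E2F element (right), in the 200 strongest promoters and the other 813. CHR matches of the strongest promoters reach 30.5 per 100 at 26 to 50 bp on the far side, and E2F matches reach 15 per 100 in the step next to the summit.

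An E2F match was found at 59 of the 200 (29.5%, 23.3 to 36.3) and at 112 of the 813 others (13.8%, 11.5 to 16.3). The windows 500 bp away from the strongest summits held one at 4.50% and 6.50%, and promoter windows generally at 3.75%. The reversed letters were at 20% of the strongest summits and 8.36% of the others, so words with the same base composition were themselves commoner at the strongest summits. Of the 71 matches in the 59 promoters, 24 were TTCGCGC and 22 were TTGGCGC. The remaining variants were TTGCCGC with 14 matches and TTCCCGC with 11, so that TTCCCGC alone would mark 5.50% of the promoters. E2F matches were densest in the 25 bp next to the summit on the far side, with 30 matches (15 per 100). By fifties in order of signal the share was 28%, 32%, 40% and 18%, with no steady fall. It was 26% in peaks 201 to 300 and 23% in peaks 301 to 400, and 5% to 20% in the groups after them. Of the 288 other IDR peaks at least as strong as the weakest of the 200, 76 (26.4%, 21.4 to 31.9) held an E2F match. A frequent E2F match was thus not limited to the strongest single-gene promoters. ima-2 had 4 matches, more than any other of the 200, and 9 further promoters had 2. Overlapping matches that began 3 bp apart were found in ima-2, mes-2, mrps-16, H14E04.2 and pas-5, and knl-3 had a pair that began 5 bp apart.

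Both elements were present at 34 of the strongest promoters (17%, 12.1 to 22.9) against 37 of the others (4.55%, 3.22 to 6.22), and 69 had neither (34.5%, 27.9 to 41.5) against 599 (73.7%, 70.5 to 76.7). Where both were present they tended to lie close: the median gap was 3 bp at the 34 and 10 bp at the 37. A gap of 0 to 5 bp was found at 23 of the 200 (11.5%) and at 8 of the 813 (0.984%). The close pairs are sorted here by side and gap, whatever the strand. The gap limits were not set beforehand, and the groups take in all 23 close pairs of the strongest promoters. Lower counts at the others are therefore a description only. In 15 the CHR letters stood 5′ of the E2F word with 0 or 1 bp between, as at sec-61.G. In 8 they stood 3′ of it with a gap of 3 to 5 bp, as at exos-2, an RNA exosome subunit. The counts of these groups at the others were 6 and 1. By strand, the 15 held 10 with both matches on the same strand and 5 on opposite strands. The 8 held 2 on the same strand and 6 on opposite strands. The 10 strongest with both elements included sec-61.G, wee-1.3, ubc-7, exos-2, mes-2, imb-3, T26E3.4, pcn-1 and cyn-10. Among them ubc-7 is a ubiquitin-conjugating enzyme, mes-2 the histone methyltransferase of the worm Polycomb complex, imb-3 a protein of the importin beta family, pcn-1 the sliding clamp PCNA and cyn-10 a cyclophilin. The gaps of the 10 ran from 0 bp at sec-61.G to 71 bp at wee-1.3, and 6 of the 10 had 5 bp or less.

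The GAGA box, GAGAGA on either strand, went the other way. It was found at 27 of the strongest summits (13.5%, 9.09 to 19) against 232 of the others (28.5%, 25.5 to 31.8), and at 7.62% of promoter windows generally. Its share was 12%, 14%, 14% and 14% by fifties among the 200, and 20% to 34% in the groups of 100 after them. At the 288 other IDR peaks at least as strong as the weakest of the 200 it was 12.5% (8.91 to 16.9). A TATA box, TATAAA, was rare at both (3% against 3.32%, promoters generally 12.7%), as was the SP1 box CCGCCC (4.50% against 6.40%). Runs of 7 thymines were at 10.5% against 8.86%, promoters generally 23.6%.

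Longer words recurred among these promoters. Within 75 bp of the summit the word GCAAGTGCGC, read on either strand, was found at 16 of the 200 (8%) and at 15 of the 813 (1.85%), and AAGTGCGC at 29 (14.5%) and 43 (5.29%). GAGACGCAGA was found at 11 (5.50%) and 108 (13.3%). These words were picked for their counts at the strongest promoters. A run of 18 identical bases with another promoter of the set was found at 38 of the 200 (19%, 13.8 to 25.1), in 29 pairs. In the next groups of 200 by signal it was found at 18, 20, 12 and 11. The longest run was the 23 bases of citk-2 and mcm-10 printed above, and citk-1 and chmp-7 shared 19 and 20 bases with mcm-10. The kinase gene chk-1 shared 22 bases with H14E04.2 and 20 with syf-3. lem-3 and sec-61.G shared 19 bases. No cause of these shared runs was tested.

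Of the 200 genes, 67 (33.5%) belonged to at least 1 of 31 lists of gene functions, against 174 of 813 (21.4%). Lists of DNA replication, mitosis, the cell cycle and repair held 18 (9%, 5.42 to 13.9) against 31 (3.81%, 2.61 to 5.37), and lists of translation held 12 (6%, 3.14 to 10.2) against 29 (3.57%, 2.40 to 5.08). Another 49 genes (24.5%) have only a sequence name, against 246 of the others (30.3%). Genes of a list are described in turn below by signal and by the elements at their summits. Counts are out of the single-gene promoter peaks of a list, of which 19.7% are among the strongest over all genes. Mitosis, translation factors and aminoacyl-tRNA synthetases were at 20%. Ubiquitin and CDC-48, the secretory pathway and actin were at 14.3%, and the TCA cycle and other synMuv lists at 16.7%. The remaining lists with any of the 200 were above that share, on counts of 7 or fewer.

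DNA replication held 7 of the 17 genes of its list that have a single-gene promoter peak. pcn-1 led with 1216 and had both elements. pole-1, the catalytic subunit of DNA polymerase epsilon, had 994 and a CHR match, and mcm-7, a subunit of the replicative helicase, had 741.4 and an E2F match. sld-2, mcm-10, orc-3 and psf-3 followed, at 448.7 to 652.4. Of the 7, 5 had an E2F match and 5 a CHR match.

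Mitosis and chromosome segregation held 4 of 20 (20%), near the share of 19.7% over all single-gene promoter peaks. These were knl-3, a kinetochore protein (958.6), lin-5, the NuMA-like regulator of the spindle (737.5), kbp-3 (654.5) and cls-3 (647.4). All 4 had an E2F match, and all but kbp-3 had a CHR match too. DNA repair and checkpoint genes held 5 of 8, led by mrt-2 (1191), brc-1, the worm BRCA1 (976.1), and lem-3, a nuclease (611.7). Cell cycle regulators held 2 of 4, wee-1.3 (1784) and cdk-5 (608.7), a kinase best known for its part in neurons, whose window held neither element. Over the 18 genes of these lists together, 12 had E2F (66.7%, 41 to 86.7), 12 had CHR and 8 had both.

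Genes of DREAM held 2 places of the 3 single-gene promoter peaks of their list. efl-1 had 1964 and no element, and lin-9, a subunit of the MuvB core, had 1111 and a CHR match. Of other synMuv genes mys-1, a histone acetyltransferase, was the 1 of 6 (851), with a CHR match directly next to an E2F match. Of germline and P granule genes mes-2 was the 1 of 4 (1384), also with both.

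Translation genes showed another make-up. The large ribosomal subunit held 5 of 15, led by rpl-3 (3457), rpl-35 (2227) and rpl-24.2 (1553, a member by its symbol). The small subunit held 4 of 11, led by rps-1 (956.4), rps-28 (713.6) and rps-4 (566). Translation factors held 2 of 10, eif-3.B, a subunit of initiation factor eIF3 (1291), and iff-2, an eIF5A (1043). Aminoacyl-tRNA synthetases held sars-2 (634.6) of 5. None of these 12 genes had an E2F match (exact interval 0 to 26.5), and 5 had a CHR match, while none of the 4 small subunit genes had either. Their summits lay far from the start, at a median of 284 bp for the large and 267 bp for the small subunit. Genes of the mitochondrial ribosome were 4 of 10, led by mrps-16 (1141), mrpl-55 (897.4) and mrpl-47 (849.5). In contrast 3 of these 4 had an E2F match.

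RNA polymerase and Mediator genes held 6 of 14, led by rpb-11 (1939), ints-4 (1496) and mdt-22, a Mediator subunit (1010). Splicing and mRNA processing held 5 of 12, led by syf-3 (2088), snr-6 (1622) and hrpa-1, an hnRNP A protein (1074). None of these 5 had an E2F match, and 4 had a CHR match. Nuclear pore and transport genes, which include importers of proteins, held 3 of 11: ima-2 (1541), npp-19, a nucleoporin (1271), and imb-3 (1264).

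Protein turnover, folding and transport were represented by a few genes each. Ubiquitin and CDC-48 genes held 2 of 14, cdc-48.1 (3418) and ubc-7 (1490, with both elements). Chaperones held 4 of 9, led by cyn-10 (1137), sti-1, an Hsp90 co-chaperone (1104), and pfd-5 (1048). The proteasome held 2 of 5, the ATPase gene rpt-1 (584.2) and the core gene pas-5 (525). The secretory pathway held 2 of 14, sec-61.G (3004) and sec-24.1 of the COPII coat (598.7). In energy metabolism cox-5A (2237) and cox-5B (600.4) were 2 of 5, and pdhk-2 (1819) 1 of 6. act-2, an actin gene (607.4), was 1 of 7 and had both elements.

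Of the lists of tissue markers, muscle held 1 of the 200 and neuron and intestine none, in lists with few single-gene promoter peaks, of which 19.7% are among the strongest over all genes. unc-45, a myosin chaperone (728.4), was the 1 muscle gene of 2 with a single-gene promoter peak, and its window held a CHR match. No gene of the neuron list was among the 200, against 8 among the others. The other lists with none were homeobox and nuclear receptor genes (9 among the others), tubulins and microtubules (4), histones and variants (3), small RNA pathway genes (2), intestine markers (1), chemoreceptors (1) and cuticle collagens (1). At counts this small, a list with none cannot be set apart from that share.

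**Figure D5:**
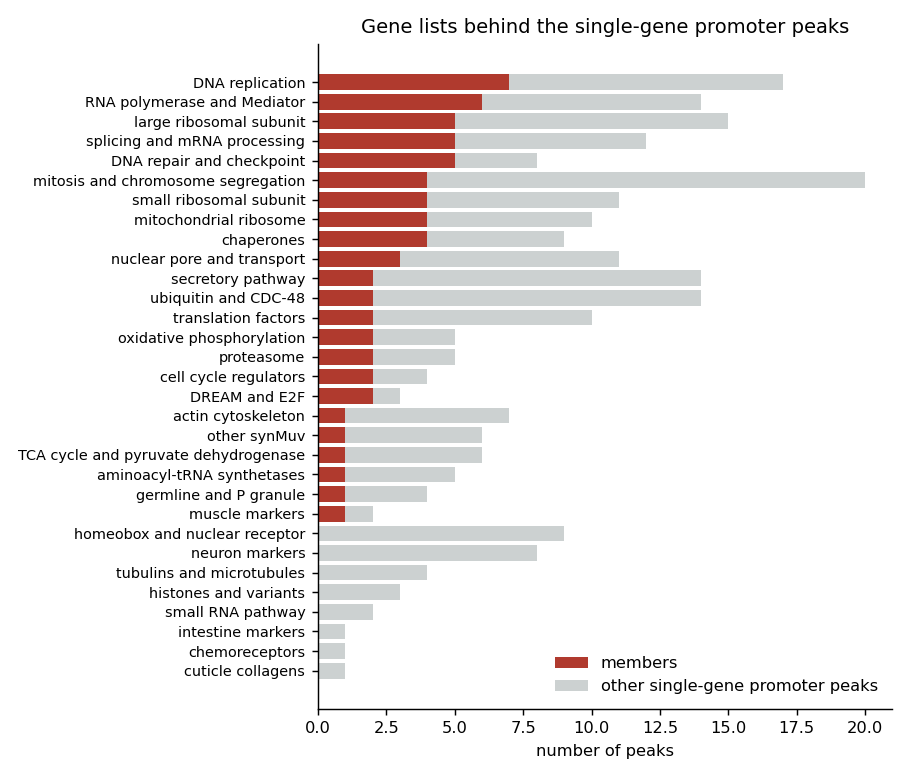
Number of single-gene promoter peaks (x axis) by gene list (y axis), split into the 200 strongest and the others. DNA replication holds 7 of the strongest, RNA polymerase and Mediator 6, and the 8 lists at the bottom none.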

How the data were processed

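Peaks came from 2 ChIP-seq replicates of 1 group. Per the deposited file manifest, the authors called peaks for each replicate and on pooled replicates against a control, and derived the IDR list from these. Which aligner and caller were used, and at what IDR level, the sources used here do not say. The deposited signal value of a peak is the authors', on a scale of its own in each list, and was used only to rank, select or describe peaks. The lists hold no read counts, so depth is unknown.

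Coordinates are ce11, the same assembly as WBcel235, printed from 1. Gene starts came from Ensembl release 115. Replicate peaks were matched by an overlap of at least 1 bp, keeping the strongest. Motifs were counted on both strands within 50 bp of the summit (101 bp), in windows 500 bp either side, and in windows centred 190 bp upstream of 13895 gene starts. Shares have exact (Clopper-Pearson) 95% intervals from SciPy 1.17.1. No test was run: there is 1 group, and peaks are not replicates of a condition. The scripts ran in Python and were checked on made-up genes and peaks with known answers.

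The promoters, the gene lists and the motifs were chosen with earlier results of these data known. Named genes are the 15 strongest, the 3 on each side of the limit, up to 3 strongest of each list, the 10 strongest with both elements, the 3 strongest with a downstream summit, the 5 with the largest rank gap, and lin-35 and efl-1. Others were named after their values were seen. The sequence of 1 promoter is not reported here. Alternatives were other windows, start definitions, numbers of promoters, single replicates, the X chromosome and other motif settings.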

Additional observations from a re-analysis of the deposited data

How the results depend on the processing

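The share of the strongest promoters with a CHR match depended most on how many were taken and on the motif window. It was 65% in the 100 strongest, 38.25% in the 400 strongest, 63.5% with candidate downstream operon genes kept, 18% within 25 bp, 68.5% within 100 bp and 13.5% for reversed letters. For E2F it was 15.5% within 25 bp, 20% for reversed letters and 5.50% for TTCCCGC alone, and for both elements 5% within 25 bp, 26.5% within 100 bp and 4% reversed. The median distance to the start was 135 bp and 245.5 bp when a single start was asked for within 250 and 1000 bp, 180.5 bp with the 5′ end of any transcript, 166.5 bp with operon genes kept, 176.5 bp in the 100 strongest, 199 bp in the 400 strongest and 181.5 bp with the summits of replicate 1. Of the 200 promoters, 126 were shared with the choice within 250 bp, 135 with that within 1000 bp and 127 with that keeping operon genes. The 100 strongest share 100 by construction.

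Ranking by 1 replicate alone kept 182 to 193 of the 200 and gave a median distance of 180.5 to 187 bp, a CHR share of 53 to 53.5% and an E2F share of 30.5 to 31%. These rankings reordered peaks of the IDR list, which was derived from both replicates, and kept the pooled summits. They are therefore no independent check of membership, distance or motif shares. Of 94 alternative values, 71 were labelled as unchanged from the value reported. For shares and summit measures this meant within counting or replicate error. For the number of promoters shared it meant only within a set ratio. The 94 also include the reversed letters, which are a comparison and not another way to get the result. No paired analysis was possible because there was 1 group. The depth is unknown, and the choice of gene record limits every distance.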
